A study of Homo sapiens with 6 samples.

Results

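Interferon-stimulated genes (ISGs) and the sensors that feed into their induction were examined in T98G cells with and without CBX8. The 40 genes were taken from a list of symbols, and all 40 were present among the 57133 gene symbols of the deposited table. Of these, 37 had enough counts to be tested, out of 14461 tested genes in all. The list holds 5 sensors of foreign RNA and their relatives, 4 transcription factors, the IFIT and OAS families and 4 genes of the ISG15 system. It also holds the PARP9 and DTX3L pair, 11 restriction factors and 6 other strongly inducible genes.

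T98G is an established human glioblastoma line, and CBX8 is a chromodomain subunit of Polycomb repressive complex PRC1. RNA-seq was carried out on 6 libraries, and the comparison asks which genes change when CBX8 is returned to cells that lack it. The CBX8 KO libraries (n = 3) came from the CBX8 knockout line carrying the empty doxycycline-inducible vector. The WT CBX8 re-expression libraries (n = 3) came from the same knockout line carrying the inducible vector with V5-tagged wild-type CBX8. Both groups were given 1 μg/ml doxycycline for 72 h, carried the same lentiviral system and were derived from cells transfected with Cas9 and a CBX8 guide RNA. The genotype label of the re-expression libraries reads wild type, whereas their titles describe re-expression, and the titles were used. Each condition was a separate stable line, so a difference between the lines and an effect of CBX8 cannot be told apart in this design. No interferon-treated or infected sample was analysed here.

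CBX8 had 96, 104 and 83 counts in the KO libraries and 30372, 31408 and 27791 counts upon re-expression, a log2 fold change of 8.22 ± 0.08 (SE, n = 3 per condition). Total counts per library lay between 7950190 and 8659796, and the 40 ISGs and sensors took 0.140% to 0.143% of the counts in KO and 0.143% to 0.154% upon re-expression. Of 8 markers of astrocytic or glioma cells, VIM, CD44 and EGFR were abundant, GFAP and OLIG2 had between 13 and 38 counts per library, NES had at most 4, and S100B and SOX2 were listed at 0 in all 6. Of these markers, only CD44 was called, lower upon re-expression (log2 fold change −0.21 ± 0.05, edgeR adjusted p = 0.00967). VIM was at 0.05 ± 0.05 without overlap (edgeR adjusted p = 0.615), and EGFR at −0.0031 ± 0.06 with overlap (0.959). GFAP (0.68 ± 0.29) and OLIG2 (0.85 ± 0.29) had no overlap between conditions, with higher values upon re-expression, but edgeR adjusted p of 0.131 and 0.0557. The part of such differences between the lines in the results was not tested. The 7 leukocyte markers summed to 2.78 to 5.25 CPM (counts scaled to library size) in KO and 3.88 to 5.00 CPM upon re-expression. Of 3 markers of the interferon-producing plasmacytoid dendritic cells, CLEC4C and IL3RA were at 0. The other, TCF4, was expressed, with 434, 434 and 404 counts in KO and 398, 438 and 399 upon re-expression.

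As background, cells detect viral RNA in the cytosol with RIG-I (DDX58) and MDA5 (IFIH1) and in endosomes with TLR3, and these sensors activate IRF3 and the production of type I interferon. Secreted interferon signals through its receptor and the kinases JAK1 and TYK2 to a complex that contains STAT2 and IRF9 and binds the interferon-stimulated response element (ISRE) in the promoters of ISGs. The proteins made from these genes block viral entry, translation, replication and release, and several of the sensors and factors are themselves ISGs.

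The ISRE is a sequence feature that many of these genes share. The promoters of the members on which the results turn are therefore shown beside those of IFIT1 and IFITM3, which differed little between the conditions. That of ISG15, with a log2 fold change of 0.31 and an edgeR adjusted p of 0.0613, is shown as well. Windows from 250 bases before to 50 bases after the annotated start, from RefSeq on GRCh38.p14, were matched for 31 of the 40 genes and searched on both strands for the ISRE core, which is GAAA, any 2 bases, then GAAA. Each sequence is written 5′ to 3′ on the strand of its gene, with the cores in capitals (TTTC, any 2 bases, TTTC is the same core on the other strand).
IFI6, chr1:27672261-27672363, minus strand: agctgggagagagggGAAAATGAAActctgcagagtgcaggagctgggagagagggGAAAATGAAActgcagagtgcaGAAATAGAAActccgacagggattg
IFIH1, chr2:162318685-162318720, minus strand: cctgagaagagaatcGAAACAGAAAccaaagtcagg
ISG15, chr1:1013369-1013414, plus strand: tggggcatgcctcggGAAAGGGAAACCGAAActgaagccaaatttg
IFIT1, chr10:89392492-89392544, plus strand: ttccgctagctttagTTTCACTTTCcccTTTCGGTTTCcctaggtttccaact
IFITM3, chr11:320871-320927, minus strand: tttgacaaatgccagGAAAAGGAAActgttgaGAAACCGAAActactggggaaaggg
The IFI6 stretch lies 68 bases before its start and holds 3 cores, whose first bases are 156, 115 and 93 bases before the start, and the first 2 cores have identical letters. The IFIH1 stretch runs up to the base before its start and holds 1 core, 21 bases before it. Another 2 overlapping cores of IFIH1, 159 and 153 bases before the start, are not printed. In ISG15 and IFIT1 the 2 cores sit together upstream, with overlap in ISG15, and in IFITM3 they lie 52 and 35 bases before the start. None of the 5 stretches lies in an annotated exon of GENCODE release 44. The IFIH1 stretch lies outside any annotated gene, and the other 4 fall inside the span of an annotated gene.

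An ISRE core was present in the windows of 22 of the 31 members (71%) and in those of 4.38% of the 27305 symbols with a window. Of these 22 members, 8 had 1 core, 10 had 2 and 4 had 3 in the window with the most. A second element, the GAS core (TTC, any 3 bases, GAA) of the interferon-gamma response, was present in 10 members (32.3%) and in 9.38% of all symbols. Fold changes of members with and without a core overlapped. The 20 tested members with an ISRE core had a median log2 fold change of −0.01, with 10 below 0 and 10 above, and spanned −0.37 to 0.56. The 9 without a core had a median of 0.07 and spanned −0.15 to 0.20. IFIH1 and IFI6, which had the lowest and the highest fold changes of the 37, both carried 3 cores, as did HERC5 at 0.19 and IFIT5 at −0.07, which did not pass the test. A match describes the letters of the window, not binding.

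**Figure D1:**
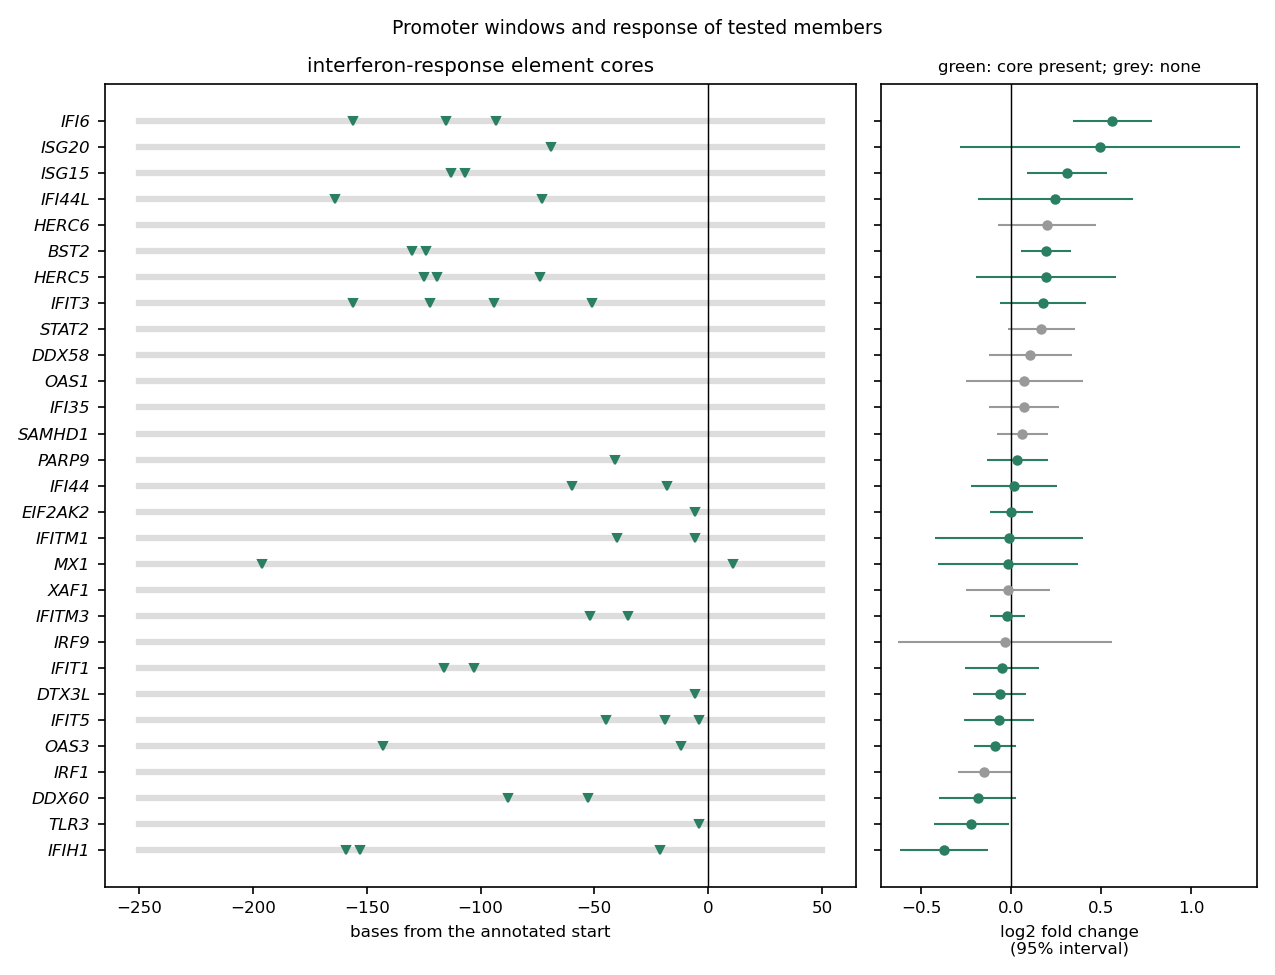
Positions of ISRE cores (triangles) in the promoter windows of the 29 tested members with a window, in bases from the annotated start, all windows of a gene on 1 line, beside the log2 fold change (WT CBX8 re-expression minus KO) with its 95% interval. Genes are ordered by fold change, and members with a core (green) are found at both ends and in the middle of the order.

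Of the 37 tested members, 1 passed the test in each direction between CBX8 KO and WT CBX8 re-expression. In the edgeR quasi-likelihood test, with Benjamini-Hochberg values taken over every tested gene, 1 member was significantly lower at FDR < 0.05 (IFIH1) and 1 was significantly higher (IFI6), each 2.7% of the 37. Over all 14461 tested genes, 6.63% were called lower (959 genes) and 6.23% higher (901 genes). Both shares were smaller among the members, but 1 gene in each direction is too few to set the members apart from the whole table. With scaling by library size alone, the all-gene split was 592 lower and 1400 higher. At an unadjusted p under 0.05, 3 of the 37 members were lower and 4 higher. Of all 14461 tested genes, 1831 were lower and 1831 higher at that level, so the members did not stand out. The 3 values of one condition did not overlap the 3 of the other for 2 lower (5.41%) and 4 higher members (10.8%), beside 14.4% of all genes lower and 14.4% higher. The median log2 fold change of the members was 0.0009 and that of all tested genes 0.0049, with 18 members below 0 and 19 above. Summed over the 40 genes, CPM lay between 1424.3 and 1465.6 in KO and between 1416.8 and 1521.8 upon re-expression, and these ranges overlapped. The labels number the libraries as replicates without saying that they are separate cultures, so the p-values measure spread between libraries, which may be technical.

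**Figure D2:**
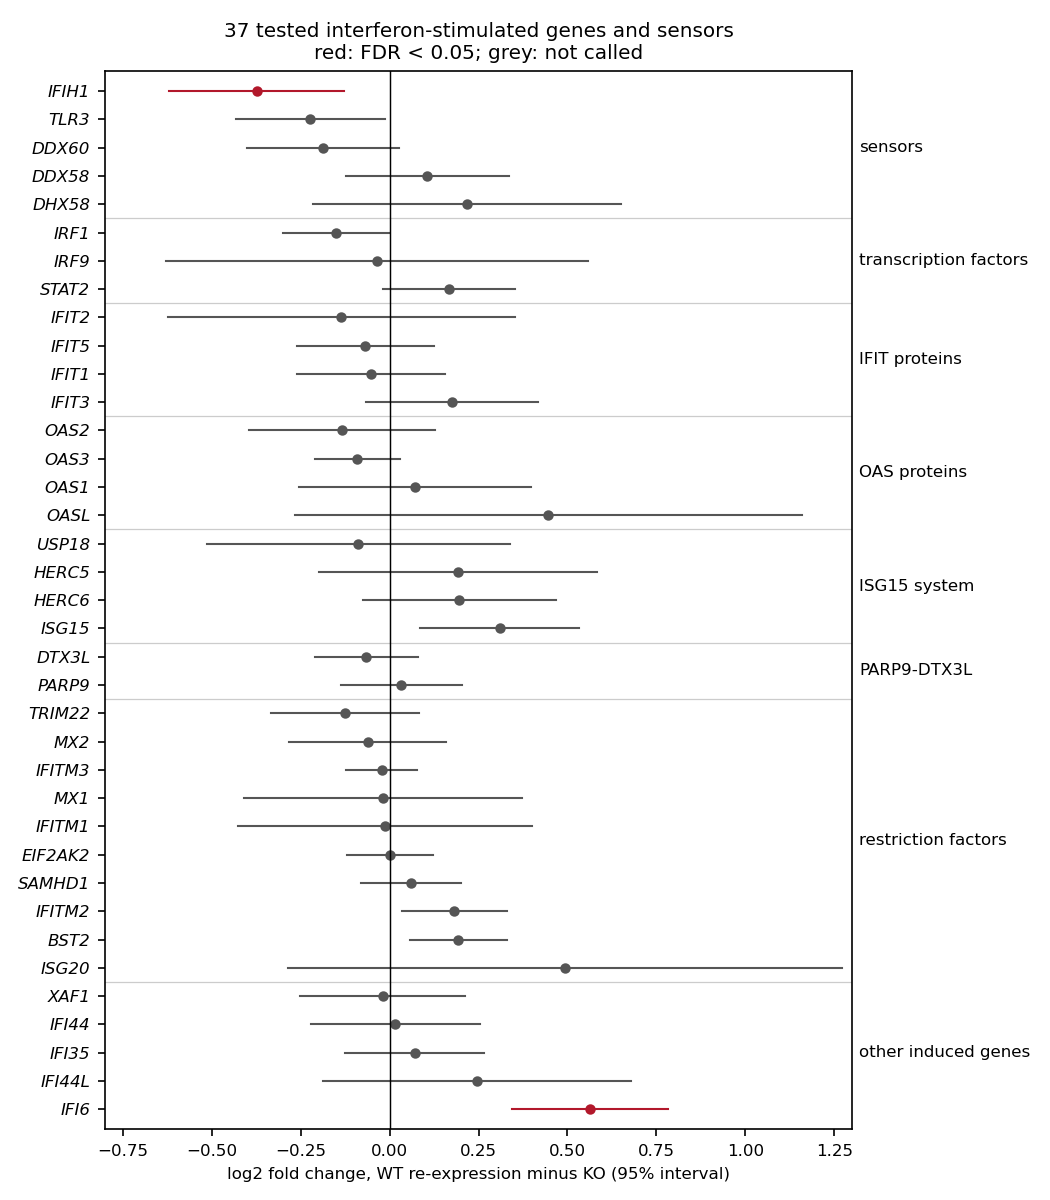
Log2 fold change (WT CBX8 re-expression minus CBX8 KO, n = 3 per condition) with its 95% interval for the 37 tested members, grouped by role. IFIH1 at −0.37 and IFI6 at 0.56 are the only genes at FDR < 0.05 (red), and 29 of the 37 lie within 0.2 of 0.

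Standard errors of the tested members ran from 0.05 (IFITM3) to 0.38 (ISG20) on the log2 scale, with a median of 0.11, and 23 of the 40 members had over 100 counts in every library. Expressed as CPM per kilobase of the canonical transcript, which allows genes to be compared, IFITM3 was by far the most abundant member at 697, followed by BST2 at 76.9, IFITM2 at 60.6, IFI35 at 28.8 and ISG15 at 26.6. In all, 14 members were above 10 CPM per kilobase, 20 lay between 1 and 10, and 6 were below 1. The lowest tested members were OASL (0.463), IFI44L (0.747) and ISG20 (0.945). The 3 most abundant members were restriction factors, but others of that group, such as MX1 and ISG20, ranked low.

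**Figure D3:**
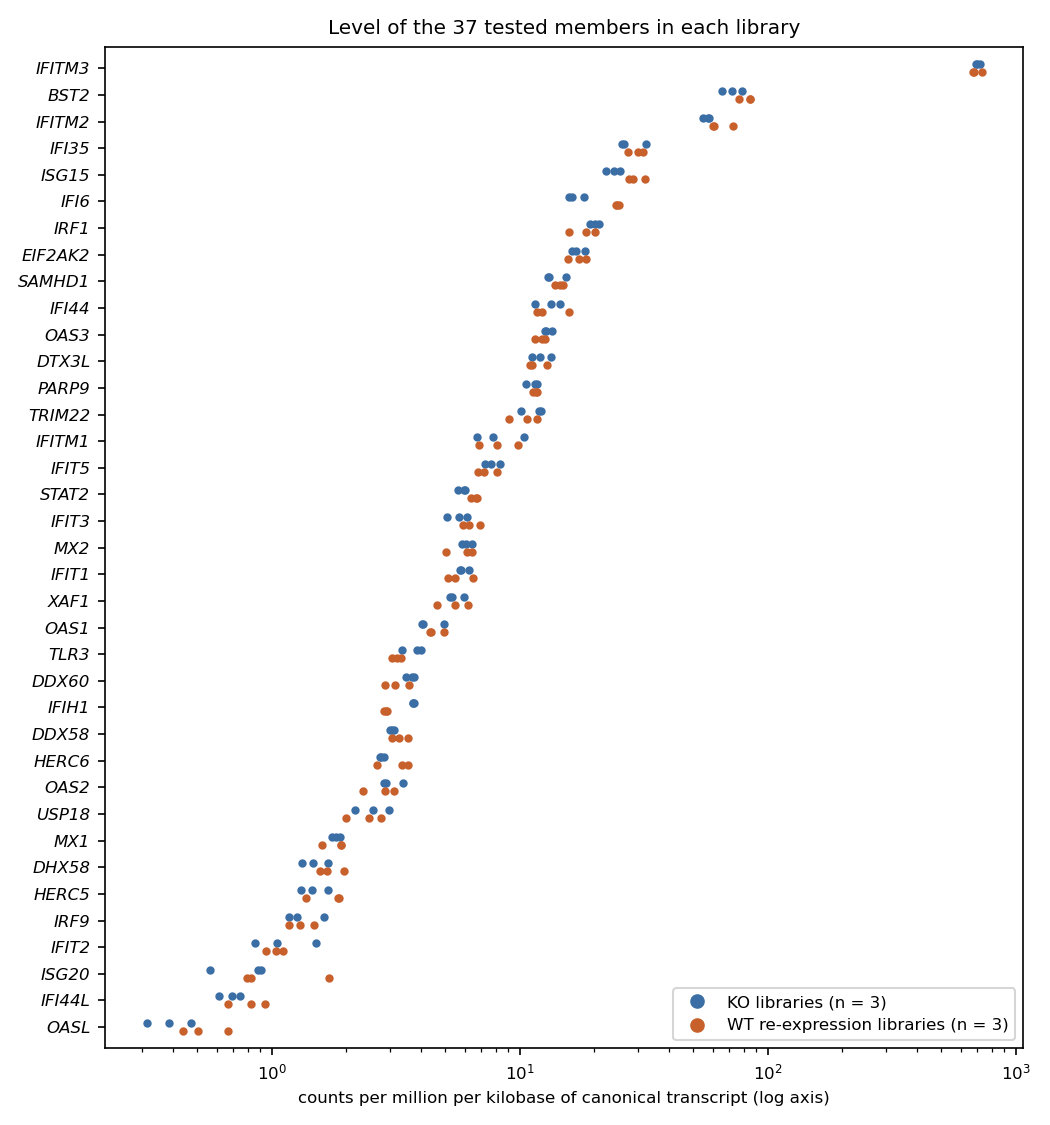
CPM per kilobase of canonical transcript (log axis) of the 37 tested members in each of the 3 KO (blue) and 3 re-expression (orange) libraries, ordered by mean. The members span from 0.463 (OASL) to 697 (IFITM3), and the 2 colours overlap for most genes, with IFI6 and IFIH1 among those that separate.

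IFI6 encodes a small hydrophobic interferon-induced protein with anti-apoptotic and antiviral activity. It had 117, 108 and 103 counts in KO and 169, 175 and 171 upon re-expression, or 13.6 ± 1.03 and 20.1 ± 0.256 CPM (SD, n = 3). All 3 re-expression libraries were above all 3 KO libraries. The log2 fold change was 0.56 ± 0.11 (SE), with an edgeR adjusted p of 0.000598, and IFI6 was called in each of the 14 other fits tried, including every fit that left out 1 library. Of its 812 base canonical transcript, 16.4% of 100-base stretches also match LINC02574, which overlaps it on the same strand and had at most 1 count in any library. IFI6 lies on chromosome 1 (27666064 to 27672212, minus strand, GRCh38). The 6 tested genes within 250 kb of it had log2 fold changes from −0.15 to 0.11, and 0 were called by edgeR at FDR < 0.05. None of the 6, which include STX12 and PPP1R8, had a fold change near that of IFI6.

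Among the 5 sensors, IFIH1 fell and no other member passed the test. IFIH1 encodes MDA5, which recognises long double-stranded RNA. It had 105, 113 and 104 counts in KO and 88, 91 and 85 upon re-expression, or 13.3 ± 0.0885 and 10.3 ± 0.147 CPM (SD, n = 3). The CPM values of the groups did not overlap. Both SDs were smaller than counting error alone gives at such counts, so they are no measure of precision. The log2 fold change was −0.37 ± 0.12 (SE), with an edgeR adjusted p of 0.0377. This call was near the threshold. It was lost when any 1 of the 6 libraries was left out, with adjusted p between 0.0732 and 0.112 and log2 fold changes between −0.38 and −0.36, and the adjusted p over the 14 other fits ran from 0.036 to 0.191. IFIH1 lies on chromosome 2 (162267074 to 162318684, minus strand). Of the 2 tested genes within 250 kb, FAP was at −0.20 ± 0.14 (edgeR adjusted p = 0.422). The start of the other, the divergent neighbour GCA, lies 156 bases away, and GCA was at 0.991 CPM in KO and 1.94 CPM upon re-expression. GCA had a log2 fold change of 0.96 ± 0.37, with an edgeR adjusted p of 0.0895.

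The other RIG-I-like sensors did not share the direction of IFIH1. DDX58, which encodes RIG-I, the sensor of 5′-triphosphate RNA, had 110, 121 and 110 counts in KO and 128, 143 and 119 upon re-expression, with overlap between conditions and a log2 fold change of 0.11 (95% interval −0.12 to 0.34). DHX58, which encodes LGP2, a relative that lacks the signalling domain, had 29 to 34 counts in KO and 34 to 43 upon re-expression and a log2 fold change of 0.22 (−0.22 to 0.65). The ratio of IFIH1 to DDX58 counts within a library does not depend on scaling. It was 0.955, 0.934 and 0.946 in KO and 0.688, 0.636 and 0.714 upon re-expression, so the 2 groups did not overlap. Because IFIH1 was already called lower, this ratio is no separate evidence. The exact permutation test (two-sided) gave p = 0.1, the smallest that 3 against 3 libraries allow, and 0.3 after adjustment over the 6 ratios computed between members. In GENCODE, 96.6% of the 100-base stretches of the DDX58 transcript are shared with a readthrough gene model, so its counts depend on how the authors' counting treated both.

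TLR3, the endosomal receptor for double-stranded RNA, had 183, 170 and 187 counts in KO and 156, 169 and 167 upon re-expression, or 22.4 ± 1.96 and 19.2 ± 0.781 CPM. The CPM values of the groups did not overlap, but the log2 fold change of −0.22 ± 0.10 had an edgeR adjusted p of 0.166. DDX60, a helicase proposed to act with RIG-I, had a log2 fold change of −0.19 (95% interval −0.40 to 0.03). TLR3 and DDX60 were thus on the side of IFIH1, and DDX58 and DHX58 on the other, but only IFIH1 passed the test.

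STAT2 and IRF9 are subunits of the ISRE-binding complex, and IRF1 is a factor that binds related sites. STAT2 had 208, 208 and 207 counts in KO and 252, 257 and 235 upon re-expression, and its CPM values did not overlap. With a log2 fold change of 0.17 ± 0.09 and an edgeR adjusted p of 0.252, STAT2 did not pass the test. IRF1 had 542, 604 and 581 counts in KO and 558, 492 and 602 upon re-expression, and the groups overlapped. Its log2 fold change was −0.15 ± 0.07 with an edgeR adjusted p of 0.192. Without re-expression replicate 3, IRF1 was called lower (log2 fold change −0.24, edgeR adjusted p = 0.0411), and without re-expression replicate 2 it was at −0.06 (0.711). IRF9 had 16 to 21 counts in each library and a log2 fold change of −0.04 (−0.63 to 0.56), and most of its transcript (92.6% of 100-base stretches) is shared with another gene model. IRF7, the factor that amplifies the interferon response, had 1, 0 and 3 counts in KO and 0, 1 and 0 upon re-expression and was not tested.

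ISG15 encodes a ubiquitin-like protein that is attached to other proteins during the response. It had 112, 128 and 126 counts in KO and 174, 160 and 148 upon re-expression, or 15.2 ± 0.996 and 18.8 ± 1.48 CPM. Every re-expression library was above every KO library, but the log2 fold change of 0.31 ± 0.11 had an edgeR adjusted p of 0.0613 and missed the threshold. HERC5, the ligase that attaches ISG15, and its neighbour HERC6 had log2 fold changes of 0.19 and 0.20, with 95% intervals that included 0, and the HERC6 to HERC5 ratio averaged 2.03 in KO and 2.02 upon re-expression. USP18, the protease that removes ISG15 and restrains signalling at the receptor, was at −0.09 (−0.51 to 0.34), and shares 36.4% of its 100-base stretches with other genes, USP41 among them. Thus 3 of these 4 members were above 0 and none passed the test. UBA7 and UBE2L6, which also act in attaching ISG15, are not members and were listed with other interferon-induced genes. UBA7 was at 0.11 ± 0.09 (edgeR adjusted p = 0.463). UBE2L6 was at −0.16 ± 0.05, without overlap, and was called lower near the threshold (edgeR adjusted p = 0.0422). Neither gene was followed singly over the other fits.

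The restriction factors hold the most abundant members. BST2 encodes tetherin, which retains budding virions at the cell surface. It had 518, 602 and 614 counts in KO and 723, 743 and 641 upon re-expression, or 71.8 ± 6.61 and 82.1 ± 4.98 CPM. KO replicate 3 lay above re-expression replicate 3 in CPM, so the groups overlapped. The log2 fold change was 0.19 ± 0.07 with an edgeR adjusted p of 0.0555. Without KO replicate 3 the adjusted p was 0.013, and without re-expression replicate 3 it was 0.0266, and over the 14 other fits it ran from 0.013 to 0.267.

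The IFITM proteins block fusion of viruses with endosomal membranes, and their genes are neighbours on chromosome 11. IFITM2 had 456, 466 and 457 counts in KO and 514, 533 and 614 upon re-expression, without overlap in CPM. Its log2 fold change was 0.18 ± 0.07 with an edgeR adjusted p of 0.103. Without re-expression replicate 3, the highest library, it was 0.08 with an edgeR adjusted p of 0.535. IFITM3, with 3380 to 3557 counts in KO and 3512 to 3734 upon re-expression, had a log2 fold change of −0.02 (95% interval −0.12 to 0.08), the narrowest interval among the members. IFITM1 was at −0.01 (−0.43 to 0.40), and 50.1% of its 100-base stretches are shared with neighbouring models, IFITM3 among them. The ratio of IFITM2 to IFITM3 counts was 0.135, 0.131 and 0.133 in KO and 0.146, 0.148 and 0.164 upon re-expression. These did not overlap, with an exact permutation p of 0.1 (two-sided, the smallest possible) and 0.3 after adjustment over the 6 ratios. The paralogs are alike in sequence (IFITM2 shares 2.1% and IFITM3 8.2% of such stretches with other genes), so part of their counts depends on how reads were assigned.

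**Figure D4:**
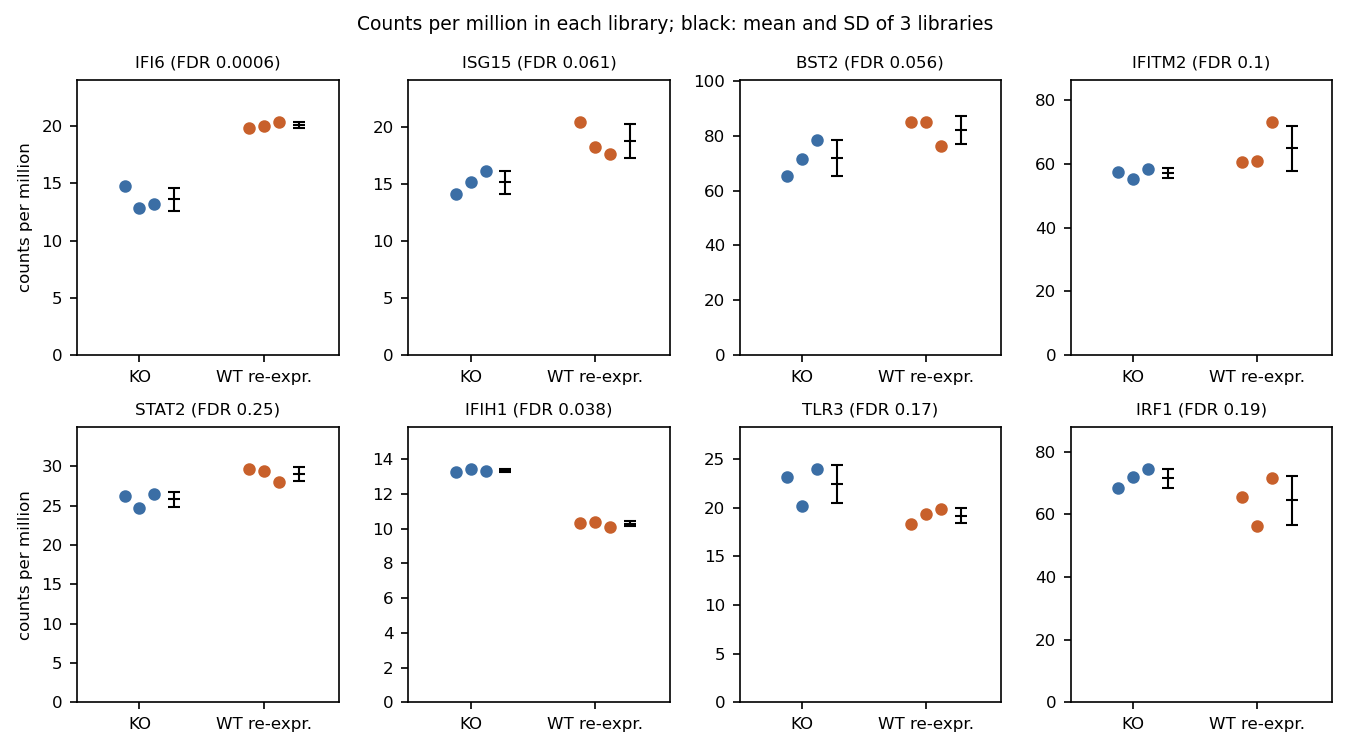
CPM in each of the 3 KO (blue) and 3 re-expression (orange) libraries, with mean and SD in black, for the 8 members with an unadjusted p under 0.05 or with groups that do not overlap. IFI6 rises from 13.6 to 20.1 CPM and IFIH1 falls from 13.3 to 10.3 CPM, while the groups of BST2 and IRF1 overlap.

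Outside these 8 genes, 29 tested members had edgeR adjusted p of 0.27 or above. Their log2 fold changes ran from −0.19 to 0.49, with 15 below 0 and 14 above. MX1 and MX2, dynamin-like GTPases that trap viral nucleocapsids, were at −0.02 and −0.06. EIF2AK2, which encodes PKR, the kinase that halts translation on sensing double-stranded RNA, was at 0.0009 (95% interval −0.12 to 0.12) with 1271 to 1548 counts per library. SAMHD1, a nucleotide hydrolase that limits reverse transcription, was at 0.06, and TRIM22, a ubiquitin ligase, at −0.12. ISG20, an exonuclease, had 11, 12 and 7 counts in KO and 23, 11 and 11 upon re-expression. Its log2 fold change of 0.49 (−0.28 to 1.27) rested on re-expression replicate 1, and without that library it was 0.04. RSAD2, which encodes viperin, had 0, 2 and 1 counts in KO and 0, 4 and 0 upon re-expression and was not tested.

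The IFIT and OAS families, the classic RNA-binding effectors, had no member past the threshold. IFIT proteins bind viral RNA that lacks host cap marks. IFIT1 had 193 to 225 counts in KO and 186 to 238 upon re-expression, a log2 fold change of −0.05 (95% interval −0.26 to 0.16). IFIT2, IFIT3 and IFIT5 were at −0.14, 0.18 and −0.07, and the median of the 4 was −0.06. OAS enzymes make the 2′-5′ oligoadenylates that activate RNase L. OAS1, OAS2 and OAS3 were at 0.07, −0.13 and −0.09, and OAS3, the most abundant with 647 to 708 counts per library, had an interval of −0.21 to 0.03. OASL, a relative without enzymatic activity, was at 0.45 on 8 to 19 counts per library, with an interval of −0.27 to 1.16.

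The remaining members include 2 pairs that share a locus. PARP9, of the PARP family, and DTX3L, a ubiquitin ligase, act as a complex. Their genes are divergent, with windows that share 1 ISRE core and exons that overlap on opposite strands. They were at 0.03 (95% interval −0.14 to 0.20) and −0.07 (−0.21 to 0.08). IFI44 and its neighbour IFI44L were at 0.02 and 0.25, with 152 to 227 counts per library for IFI44 and 30 to 46 for IFI44L, and neither passed the test. The ratios PARP9 to DTX3L, IFI44 to IFI44L, HERC6 to HERC5 and MX2 to MX1 overlapped between conditions, with exact permutation p from 0.3 to 1 (two-sided). IFI35 was at 0.07 and XAF1, a pro-apoptotic gene, at −0.02. IFI27, often among the most strongly induced ISGs, had 1, 0 and 0 counts in KO and the same upon re-expression and was not tested.

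The near-absence of IFI27 and IRF7 coincided with a feature of the genome build. Both have a copy of their transcript on an alternate contig of hg38, matched over at least 95% of its bases. Among protein-coding genes in the table, 81.1% of the 767 with such a copy had 10 or fewer counts over the 6 libraries together, beside 31.1% of the 18075 without. No other member had such a copy. Whether reads of IFI27 and IRF7 were lost to their second copies was not tested. RSAD2 has no such copy.

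The interferon pathway around the members was examined with lists of its other genes. Of 21 interferon ligands, 0 could be tested and 19 had no count in any library, which allows up to 3 counts, or 0.343 to 0.384 CPM, in a library. IFNB1 had 1 count in 1 re-expression library and IFNE had 1 to 5 counts per library. RNA of these ligands was thus at or near the limit of detection in both conditions, and the IFNA genes are near-identical copies whose shared reads depend on the counting.

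Of 16 receptors, kinases and inhibitors, 14 were tested, 0 were called lower and 1 higher, with a median log2 fold change of 0.03. Over all tested genes, 6.63% were called lower and 6.23% higher, and 14 genes are too few to differ from these shares by 1 call. The receptor chains IFNAR1 and IFNAR2 were at 0.03 and −0.13 and the kinases JAK1 and TYK2 at −0.14 and 0.03, with none of the 4 passing the test. JAK1 was called lower without KO replicate 3 (log2 fold change −0.22, edgeR adjusted p = 0.00754). SOCS3, a feedback inhibitor of JAK signalling, had 260, 258 and 251 counts in KO and 321, 341 and 331 upon re-expression, with no overlap. Its log2 fold change was 0.28 ± 0.08 (edgeR adjusted p = 0.0215), and the call was lost without KO replicate 2, re-expression replicate 2 or re-expression replicate 3, with adjusted p up to 0.102.

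Among 25 nucleic acid sensing genes outside the members, 19 were tested, 2 were called lower and 1 higher, with a median log2 fold change of −0.0017. These counts stand beside 6.63% of all tested genes called lower and 6.23% higher, and are too small to be told apart from those shares. The largest rise was in TMEM173, which encodes STING, the adaptor downstream of the DNA sensor cGAS. TMEM173 had 126, 154 and 160 counts in KO and 245, 247 and 278 upon re-expression and a log2 fold change of 0.72 ± 0.11 (edgeR adjusted p = 2.3e-05), and was called in all 14 other fits. CGAS itself had 3, 0 and 0 counts in KO and 1, 0 and 0 upon re-expression. Of the other DNA sensors, AIM2 had 17, 32 and 23 counts in KO and 16, 13 and 12 upon re-expression, a log2 fold change of −0.89 ± 0.30 (edgeR adjusted p = 0.0499), and IFI16 was at −0.20 ± 0.06 (edgeR adjusted p = 0.0354). Both of these calls were unstable, and both were lost with library size scaling, DESeq2 and the replicate block. AIM2 lost its call in 5 of the 6 fits without 1 library, all but the one without KO replicate 1 (edgeR adjusted p 0.0567 to 0.278). IFI16 lost its call in 4 of the 6, namely without replicate 1 or 2 of either condition (0.0804 to 0.176). The adaptors and factors shared with RNA sensing did not pass the test, with MAVS at 0.0052 (95% interval −0.09 to 0.10), TBK1 at −0.13 and IRF3 at 0.15.

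Of 21 antigen presentation genes, 11 were tested, with 4 called lower, 0 called higher, 10 below 0 and a median log2 fold change of −0.15, beside 6.63% of all tested genes called lower and 6.23% higher. ERAP1 and ERAP2, the aminopeptidases that trim peptides in the endoplasmic reticulum, were at −0.36 ± 0.05 (edgeR adjusted p = 5.1e-06) and −0.17 ± 0.05 (0.0224). PSMB10, a subunit of the immunoproteasome, was at −0.45 ± 0.12 (0.0131), and PSME2, of the proteasome activator, at −0.19 ± 0.06 (0.0219). ERAP1 kept its call in all 14 other fits. ERAP2 lost its call without KO replicate 2 or 3 or re-expression replicate 1 or 2 (edgeR adjusted p 0.0523 to 0.18), PSMB10 without KO replicate 2 or 3 or re-expression replicate 2 (0.0728 to 0.0841) and PSME2 without KO replicate 2 or re-expression replicate 2 or 3 (0.0997 to 0.135). Without KO replicate 2, or without re-expression replicate 2, ERAP1 was the 1 gene of the 4 still called. With library size scaling, ERAP2 and PSME2 also lost their calls (edgeR adjusted p 0.127 and 0.125). PSME2 was not called by DESeq2 either (DESeq2 adjusted p = 0.0582). Of the 21 genes, 13 have a copy on an alternate contig, among them 10 with 10 or fewer counts in all, such as TAP1, TAPBP and PSMB8, so this list was covered only in part.

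Of 44 other interferon-induced genes, 36 were tested, with 5 called lower and 5 higher and a median log2 fold change of −0.05, beside the same 6.63% and 6.23% of all tested genes. The guanylate-binding proteins, which attack the vacuoles of intracellular pathogens, were split, with GBP1 at 0.24 ± 0.06 (edgeR adjusted p = 0.00749) and GBP2 at 0.39 ± 0.09 (0.00478) higher and GBP4 at −0.37 ± 0.10 (0.0133) lower. HELZ2, a transcriptional coactivator, rose by 0.43 ± 0.09 (edgeR adjusted p = 0.00179). LY6E, a membrane-anchored protein, had 4, 4 and 6 counts in KO and 115, 17 and 123 upon re-expression, so that 1 re-expression library stood apart from the other 2. Its log2 fold change was 4.07 ± 0.55, and LY6E too has a copy on an alternate contig. The lower genes included PLSCR1, a phospholipid scramblase, at −0.35 ± 0.07 (edgeR adjusted p = 0.000427), WARS, the tryptophanyl-tRNA synthetase, at −0.33 ± 0.05 (5.8e-05), and LGALS3BP, a secreted glycoprotein, at −0.18 ± 0.05 (0.0157). LGALS3BP lost its call without KO replicate 3 or re-expression replicate 2 (edgeR adjusted p 0.0997 and 0.0612), as did GBP1 (0.0525 and 0.0571), and GBP4 lost its call without re-expression replicate 2 (0.107). LGALS3BP was also not called with library size scaling (edgeR adjusted p = 0.102), nor GBP4 by DESeq2 (DESeq2 adjusted p = 0.0539).

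**Figure D5:**
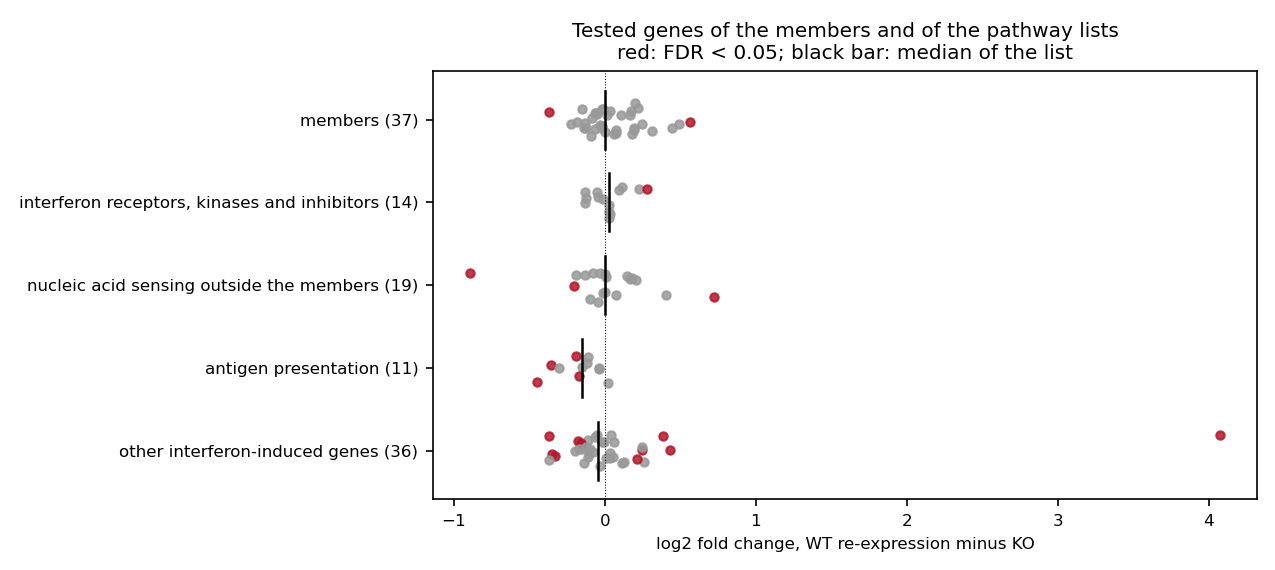
Log2 fold change (WT CBX8 re-expression minus CBX8 KO) of each tested member and each tested gene of 4 lists of the interferon pathway, with called genes in red and the median of each list as a black bar. The members centre on 0.0009, antigen presentation genes on −0.15, and LY6E stands alone at 4.07.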

How the data were processed

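RNA-seq was analysed for 6 T98G libraries, 3 per condition, assigned from their titles. The authors deposited unnormalized counts per gene symbol, and no other unit was used. Per the paper's methods, poly(A) RNA was sequenced as paired-end reads, checked with FastQC, trimmed with Trimmomatic and aligned to hg38 with HISAT2 on Galaxy. Software versions, the counter, the annotation and the strandedness of counting are not given in the sources used here. How reads shared by overlapping or near-identical genes were counted is therefore unknown. The reads carry no molecular identifiers, so limits set by depth cover counting error only.

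In R 4.3.3, all genes were filtered with filterByExpr of edgeR 4.0.16 at its defaults, scaled by TMM and compared with glmQLFit and glmQLFTest, with condition as the only term. Adjusted p-values were Benjamini-Hochberg values over all 14461 tested genes, and FDR < 0.05 was the threshold. Fold changes are WT CBX8 re-expression over CBX8 KO. CPM values used TMM-adjusted library sizes, and standard errors were obtained from the size of the log2 fold change over the root of the F statistic. The test was run on simulated counts, where a first criterion for the recovery of changed genes was narrowly missed and then replaced, with that outcome known, by one restricted to more highly expressed genes. Alternatives comprised scaling by RLE, by upper quartile or by library size, DESeq2 1.42.0, limma voom 3.58.1, no filter, a filter of CPM 1 in 3 libraries, a 1.5-fold minimum, FDR < 0.01, a replicate block, and leaving out 1 library at a time. Thus 14 other fits were made, beside 2 stricter thresholds. Ratios of counts between members were compared with exact permutation tests in scipy 1.17.1.

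The members, the pathway lists and the rule for naming genes were chosen with earlier results of these data known. The rule gives all 6 values for CBX8 and for members with FDR < 0.05, an unadjusted p under 0.05 or no overlap in CPM between conditions. It names the other members by level, range and counts or beside a paralog or neighbour. Of each pathway list it names up to 4 called genes per direction, and IFNAR1, IFNAR2, JAK1, TYK2, IRF3, MAVS and TBK1 whatever their value. The results of some genes are not reported here. Other genes given by name (such as GCA, IFNB1, CGAS, TAP1, UBA7 and UBE2L6) were chosen after their values were seen. So were the grouping of members by role, the ratios and the check of alternate contigs. Positions, canonical transcripts and overlaps came from GENCODE release 44, shared stretches from blastn 2.17.0 (100 bases), and copies on alternate contigs from minimap2 (at least 95% of bases). Older symbols were matched through RefSeq synonyms.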

Additional observations from a re-analysis of the deposited data

How the results depend on the processing

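IFI6 was called higher and CBX8 re-expression (log2 fold change 8.15 to 8.27) was called in all 14 other fits. The count of members called lower, 1 as reported, was 0 with library size scaling, DESeq2, no filter, a 1.5-fold minimum, FDR < 0.01 and the replicate block, and 0 to 1 when a library was left out, where the 1 was IRF1. The count of members called higher, 1 as reported, was 2 with upper quartile scaling (BST2 added), 4 with library size scaling (BST2, IFITM2 and ISG15 added), 0 with a 1.5-fold minimum and 1 to 2 when a library was left out. Library size scaling moved the median log2 fold change of all genes to 0.06 and that of the members to 0.06, with 12 below 0 and 25 above. No pairing of libraries by replicate number was seen (same-number correlations of deviations −0.119, −0.041 and −0.02 over 13588 genes). Deviations from the mean of only 3 libraries cannot exclude a pairing. With the replicate block, 766 genes were called lower and 739 higher. Over all genes DESeq2 called 695 lower and 502 higher, a 1.5-fold minimum left 144 and 284, FDR < 0.01 left 569 and 489, and leaving out a library gave 635 to 851 lower and 593 to 792 higher.

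For antigen presentation, the count called lower (4) was 2 with library size scaling, 1 at FDR < 0.01, 0 with a 1.5-fold minimum and 1 to 4 without a library. For receptors, kinases and inhibitors, the count higher (1) was 0 with DESeq2, a 1.5-fold minimum and FDR < 0.01 and 0 to 1 without a library, and the count lower (0) was 0 to 1 without a library. For nucleic acid sensing, the count lower (2) was 0 with library size scaling, DESeq2, FDR < 0.01 and the replicate block, 1 with upper quartile scaling, limma voom, the CPM filter and a 1.5-fold minimum, and 0 to 1 without a library. For other interferon-induced genes, the count lower (5) was 3 with library size scaling and DESeq2, 2 at FDR < 0.01, 0 with a 1.5-fold minimum and 2 to 5 without a library, and the count higher (5) was 1 with a 1.5-fold minimum and 3 to 5 without a library. Fewer libraries were tested in the fits without one, and the cause of the other changes was not tested.

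Fold changes that turned sign were all uncalled. EIF2AK2 was at −0.0024 with RLE, −0.0023 with DESeq2, −0.0004 with limma voom, −0.0122 with no filter, −0.0001 with the CPM filter and −0.0001 with the replicate block, and MAVS was at −0.0079 with no filter. With library size scaling, IFITM1 was at 0.0427, IFITM3 at 0.0338, IFIT1 at 0.0041, IRF9 at 0.0203, XAF1 at 0.0356 and MX1 at 0.0373. The lowest and highest values when a library was left out were −0.0564 to 0.0588 for EIF2AK2, −0.1339 to 0.0979 for IFI44, −0.158 to 0.0135 for IFIT1, −0.302 to 0.1116 for IFIT2, −0.157 to 0.1747 for IFITM1, −0.0329 to 0.0764 for IFNAR1, −0.1337 to 0.1169 for IRF9, −0.0021 to 0.0116 for MAVS, −0.0646 to 0.0592 for MX1, −0.1361 to 0.0386 for MX2, −0.0119 to 0.0592 for PARP9, −0.0248 to 0.0672 for TYK2, −0.2012 to 0.0281 for USP18 and −0.1248 to 0.0797 for XAF1. Of 854 values of named genes under the alternatives, 756 kept direction and side of the threshold. For the low members OASL, ISG20 and IRF9, the 95% intervals spanned over 1 log2 unit, and IFI27, IRF7 and RSAD2 could not be tested.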
